A study of Mus musculus with 12 samples.

Results

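The 34 genes described here encode enzymes, regulators and transporters of cholesterol and fatty acid synthesis, and they were listed by name, not by a measured value. Each gene was represented by 1 probe set, the one with a single gene symbol and the highest mean over the 12 arrays. Of the 34 listed genes, 33 were named on the array and all 33 passed the filter on low values, out of 12918 genes tested. The remaining gene, Acat2, enters only the promoter counts, and its level was not analysed here. The lowest value of any of the 33 on any array was 6.13 log2 units, for Abca1, above the filter of 5.10. The genes were set in 5 roles, with 6 genes of the mevalonate pathway, 11 of the squalene and sterol steps, 5 of SREBP control, 3 of sterol transport and efflux, and 8 of fatty acid synthesis and desaturation.

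The cells were mouse bone marrow progenitors sorted as lineage-negative, c-Kit+, Sca-1+ and Flt3-negative, transduced with 1 of 3 retroviruses and sorted again for GFP. The INV16 virus encodes CBFB-MYH11, a leukaemia fusion that joins the beta subunit of core binding factor to the tail of a smooth muscle myosin heavy chain. Its group holds 4 arrays, of which replicates 1 to 3 enter the comparisons and replicate 4 is described apart. The ACD mutant virus (3 arrays) encodes the same fusion with the assembly competence domain deleted, described in the design text as non-leukemogenic. The MIB control virus (5 arrays, replicates 3 to 7) is the empty vector. All 3 groups were cultured for 24 h, exposed to virus with polybrene for 4 h and kept for another 20 h. Their medium held 10% serum, 50 ng/ml of SCF (stem cell factor) and 5 ng/ml of IL-6. The cells therefore carried the fusion for about a day, as sorted pools and not as clones, and the strain and age of the mice are not stated in the labels. Sorting, transduction and array analysis were repeated for every replicate, so p-values measure the spread between experiments. In MIB control that spread includes the difference between the sets of arrays described below. Levels are the deposited log2 values of 1 probe set, so 1 unit is a doubling of signal, and levels of different genes were not set against each other. In such bulk RNA, fewer cells of a type and less of a transcript per cell cannot be told apart.

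Cells build cholesterol from acetyl-CoA through mevalonate, farnesyl pyrophosphate, squalene and lanosterol, and build fatty acids from the same acetyl-CoA through malonyl-CoA. The transcription factors SREBP-1 and SREBP-2 raise the genes of both routes when membrane sterol is low. SCAP then carries them from the endoplasmic reticulum to the Golgi to be cut, and the INSIG proteins hold them back when sterol is high. Oxysterols act the other way through the nuclear receptor LXR, which raises the efflux transporters ABCA1 and ABCG1. In blood stem cells and progenitors, these transporters and membrane cholesterol are known to bear on the response to growth factors.

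Some differences among the arrays cut across the groups. BioC minus BioB, the log2 difference of a pair of Affymetrix spike-in controls, split them into set A, with INV16 replicates 1 to 3 and MIB control replicates 3 to 5 (1.07 to 1.21), and set B, with INV16 replicate 4, the 3 ACD mutant arrays and MIB control replicates 6 and 7 (-0.11 to 0.07). INV16 replicates 1 to 3 thus lie wholly in set A and the ACD mutant wholly in set B, and MIB control arrays are in both. The spread that the tests over 11 arrays use therefore includes the gap between sets within MIB control. For Dhcr7, the SE of INV16 minus MIB control was 0.33 over 11 arrays and 0.16 within set A. For Hmgcs1 it was 0.21 and 0.22. The 3' minus 5' difference of the Gapdh control was 1.10 to 1.53 in set A. In set B it was 3.64 on INV16 replicate 4, 3.17 on ACD mutant replicate 1 and 1.63 to 1.98 on the others. The mean of 4 megakaryocyte markers was 7.40 to 7.53 on the INV16 arrays, 9.002 to 9.42 on the ACD mutant arrays, 7.41 to 7.52 on the MIB control arrays of set A, and 8.15 and 9.75 on those of set B. The mean of 6 neutrophil markers was 6.505 to 7.04 on the INV16 arrays, below the 7.18 to 7.57 of the ACD mutant and the 7.29 to 9.08 of MIB control. The mean of 6 monocyte and macrophage markers was 7.63 to 8.09 on the INV16 arrays, below the 8.12 to 8.34 of the ACD mutant, with 7.46 to 8.54 in MIB control. The part of these measures in the results below was not tested. The progenitor markers Kit and Cd34 had levels of 10.26 to 11.43 and 11.15 to 12.35 on the 11 arrays compared, and the gene of Sca-1 was not analysed here. Cbfb, the mouse gene matching the front of the fusion, differed by -0.05 (SE 0.12) between INV16 and MIB control and by -0.30 (SE 0.12) between ACD mutant and MIB control in limma (adjusted p = 0.892 and 0.179), and whether its probes read the viral transcript was not tested.

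**Figure D1:**
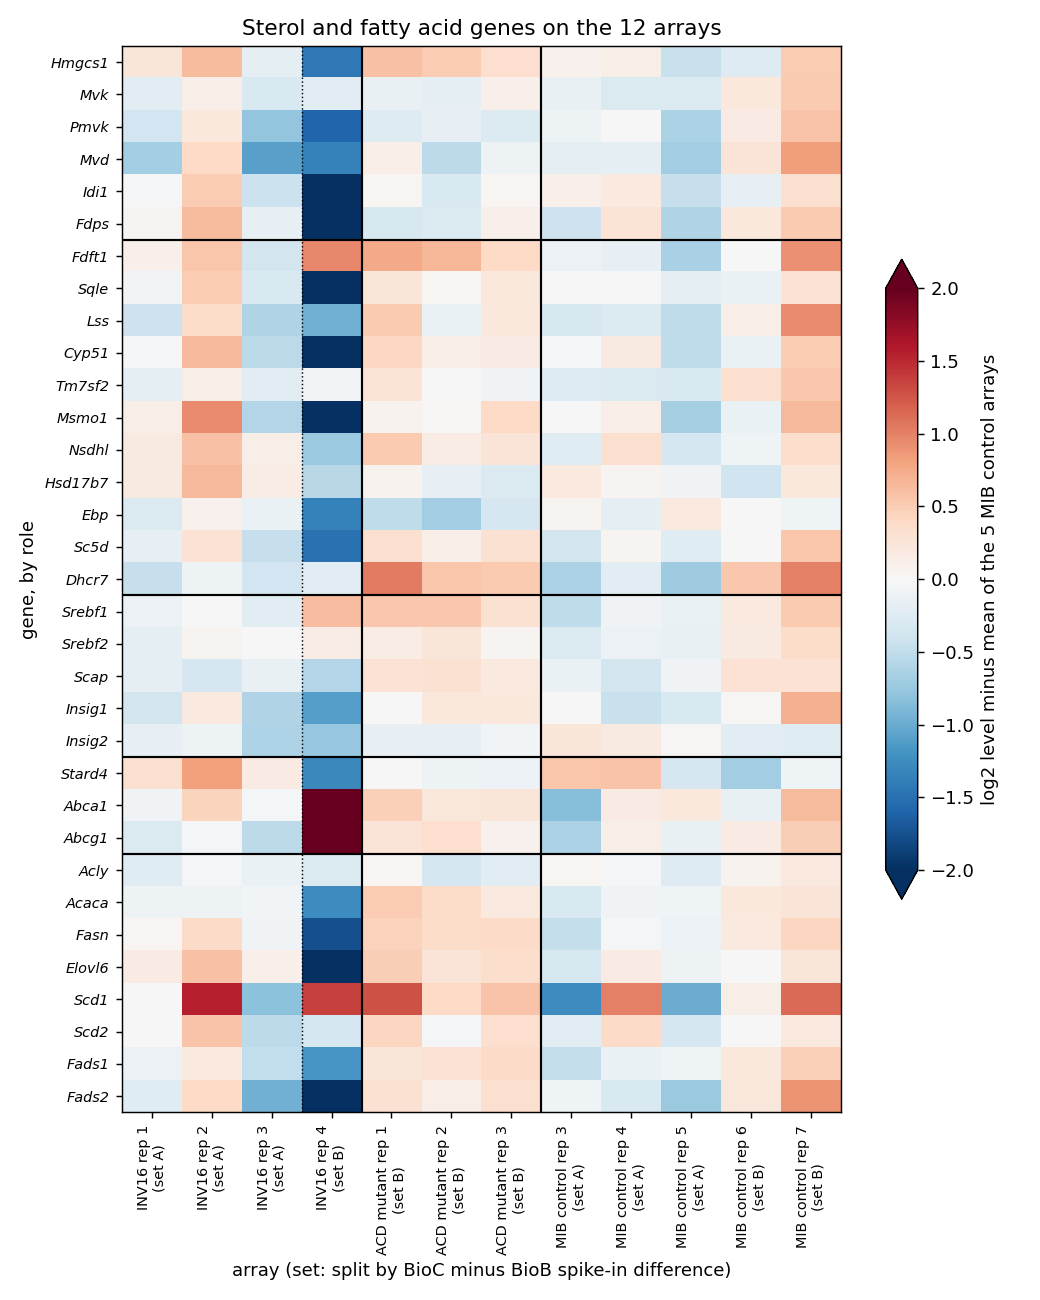
Level of each of the 33 genes (rows, by role) on each of the 12 arrays (columns), as the log2 level minus the mean of the 5 MIB control arrays, with the colour scale closed at 2 units either way. Most rows change shade together from array to array, MIB control replicate 7 and INV16 replicate 2 being high for most genes, and INV16 replicate 4 departs from the rest.

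The first comparison asks what the leukaemia fusion does to these genes within a day. None of the 33 genes passed the test between INV16 and MIB control, where 1.70% of all genes tested did (219 genes, limma with Benjamini-Hochberg adjustment at 0.05). At an unadjusted p under 0.05, 0 of 33 genes were found in limma, against 15.8% of all genes. No gene was higher, and none lower, on all 3 INV16 arrays than on all 5 MIB control arrays, against 3.27% and 5.98% of all genes. The median difference over the 33 genes was -0.09 log2 units, with 15 above 0, and over all genes tested it was -0.03. Without INV16 replicate 2 the median of the 33 was -0.21, and without INV16 replicate 3 it was 0.07, so 1 array turned its sign.

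By role, the median difference between INV16 and MIB control was -0.06 for the mevalonate pathway, 0.03 for the squalene and sterol steps, 0.11 for transport and efflux and -0.04 for the fatty acid genes. For SREBP control it was -0.22, with 0 of 5 genes above 0. Differences ran from -0.46 for Mvd to 0.43 for Stard4, and the lowest adjusted p was 0.345 (limma). Mvd, the decarboxylase that makes isopentenyl pyrophosphate, had 7.24, 8.31 and 6.82 on the INV16 arrays, against 7.72, 7.71, 7.22, 8.16 and 8.75 on the MIB control arrays, a difference of -0.46 (SE 0.34). INV16 replicate 2 was above 4 of the 5 control arrays, and replicate 3 was below all of them. The difference was -0.88 without INV16 replicate 2 and -0.14 without replicate 3. Pmvk, the kinase just before it, had 8.87, 9.46 and 8.46, against 9.14, 9.26, 8.62, 9.41 and 9.81 in MIB control, a difference of -0.32 (SE 0.24) that was -0.58 and -0.085 without the same 2 arrays in turn.

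Stard4, which carries cholesterol between membranes, had 10.65, 11.15 and 10.51 on the INV16 arrays, against 10.88, 10.90, 10.00, 9.64 and 10.24 on the MIB control arrays, a difference of 0.43 (SE 0.26, limma adjusted p = 0.447). The lower 3 control arrays lay below INV16, but the other 2 lay within it, and without INV16 replicate 2 the difference was 0.24. Hsd17b7, a sterol ketone reductase, had 9.29, 9.75 and 9.26, against 9.31, 9.17, 9.05, 8.72 and 9.32 in MIB control, a difference of 0.32 (SE 0.16). Its groups overlapped through INV16 replicates 1 and 3, and without replicate 2 the difference was 0.16. The 95% confidence intervals of 30 of the 33 genes stayed within 1 log2 unit, a doubling or halving, and those of the other 3 crossed it.

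Within set A, where both groups have 3 arrays, the median difference between INV16 and MIB control was 0.12, with 25 of 33 genes above 0, against a median of -0.02 over all genes. The limma test there passed 0 of the 33 genes, against 0.232% of all genes (30 genes). At an unadjusted p under 0.05 in limma it found 1 of the 33 (3.03%), against 12.9% of all genes. Insig2, which encodes one of the INSIG proteins, had 8.95, 9.02 and 8.50 on the INV16 arrays, against 9.36, 9.29 and 9.15 on the MIB control arrays of that set. It was the only 1 of the 33 lower without overlap there, as were 1423 of the 12918 genes, and Tm7sf2, a sterol reductase, was the only 1 higher without overlap, as were 953. The difference of Insig2 within set A was -0.45, with an adjusted p of 0.289 in limma. The 2 set B controls of Insig2, at 8.90 and 8.88, lay within the INV16 range.

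**Figure D2:**
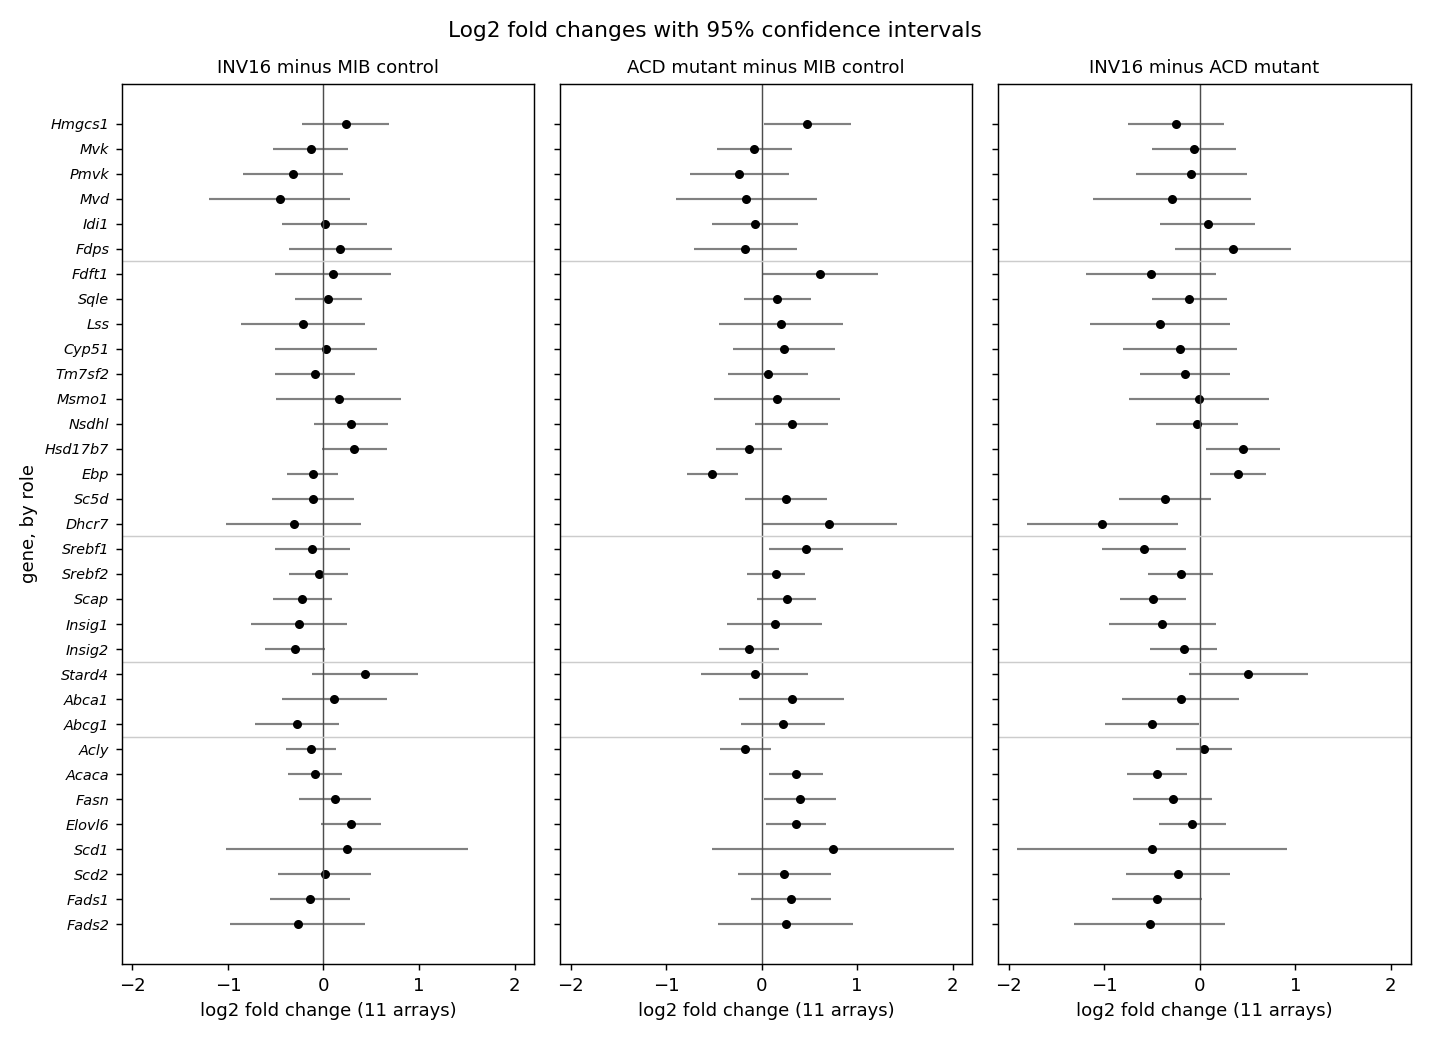
Log2 fold change of each of the 33 genes (points) with its 95% confidence interval (lines) in the 3 comparisons over 11 arrays, with genes by role down the page. Differences from MIB control spread around 0 for INV16, lie above 0 for 23 genes in the ACD mutant, and lie below 0 for 27 genes between INV16 and the ACD mutant.

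The second comparison sets the ACD mutant, which lacks the assembly domain, against the empty vector. Again 0 of the 33 genes passed the adjusted test, where 1.70% of all genes did (220 genes, limma). At an unadjusted p under 0.05, 6 genes had positive and 1 had a negative difference in limma (21.2% of the 33, against 19.5% of all genes). The median difference was 0.22 over the 33 genes, with 23 above 0, and 0.01 over all genes. It was 0.11 without MIB control replicate 5 and 0.33 without MIB control replicate 7. By role it was -0.12 for the mevalonate pathway, 0.20 for the squalene and sterol steps, 0.15 for SREBP control, 0.22 for transport and efflux, and 0.33 for the fatty acid genes, of which 7 of 8 were above 0.

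Ebp, the isomerase that moves a double bond in the sterol ring, came closest to the threshold. It had 10.20, 10.01 and 10.37 on the ACD mutant arrays, against 10.76, 10.53, 10.91, 10.71 and 10.63 on the MIB control arrays, a difference of -0.51 (SE 0.12, limma adjusted p = 0.0529). All 3 ACD mutant arrays lay below all 5 controls, and Ebp was the only gene of the 33 for which that held (5.84% of all genes). Within set B the difference was -0.48 (adjusted p = 0.112 in limma). The adjusted p came under 0.05 with quantile normalization (0.0417), without MIB control replicate 7 (0.0401) and without ACD mutant replicate 3 (0.0486), all in limma. It was 0.0496 in limma with the mean of a gene's probe sets. Ebp has 1 probe set, so its own difference stayed at -0.51 there. With the set as a block the adjusted p was 0.158, and with all 12 arrays it was 0.789, both in limma.

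Elovl6, which elongates palmitate, was the only gene higher on all 3 ACD mutant arrays than on all 5 MIB control arrays (6.93% of all genes). Its levels were 11.61, 11.37 and 11.46, against 10.80, 11.28, 11.02, 11.12 and 11.35, a difference of 0.36 (SE 0.14, limma adjusted p = 0.184). The lowest ACD mutant array and the highest control array lay side by side.

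Scd1, which puts the double bond into oleate, had 9.60, 8.72 and 8.89 on the ACD mutant arrays, against 7.07, 9.33, 7.33, 8.44 and 9.45 on the MIB control arrays, a difference of 0.75 (SE 0.58) that was 0.43 without MIB control replicate 3 and 1.03 without MIB control replicate 7. It was the most variable of the genes, with an SD of 0.46 in the ACD mutant and 1.10 in MIB control. Dhcr7, the last reductase before cholesterol, had 10.70, 10.22 and 10.18 on the ACD mutant arrays, against 9.03, 9.45, 8.95, 10.20 and 10.66 on the MIB control arrays, a difference of 0.71 (SE 0.33, limma adjusted p = 0.257). Fdft1, squalene synthase, had 11.05, 10.96 and 10.69, against 10.18, 10.13, 9.65, 10.29 and 11.21 in MIB control, a difference of 0.61 (SE 0.28, limma adjusted p = 0.256). For all 3 genes MIB control replicate 7 was among the highest arrays. Without that array, Fdft1 (0.84, adjusted p = 0.0403), Srebf1 (0.59, adjusted p = 0.0427) and Ebp passed the limma test, where 591 of the 12918 genes tested did. MIB control replicate 6 was then the only control array of set B. Within set B, with both of its controls, the differences were 0.15 for Fdft1 and 0.11 for Srebf1.

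Within set B, which holds 2 MIB control arrays, the median difference between ACD mutant and MIB control was -0.03, with 14 of 33 genes above 0, and over all genes it was -0.00. The mevalonate genes had a median of -0.49 there, with Hmgcs1, the synthase at the head of the route, as the only 1 of 6 above 0. On all 3 ACD mutant arrays, Mvk, Pmvk, Mvd, Fdps, Tm7sf2, Ebp and Acly were lower than on both controls of set B (21.2% of the 33, against 19.4% of all genes). Insig2 and Elovl6 were higher on all 3 (19.4% of all genes). None of the 33 genes passed the limma test within set B, against 0.325% of all genes (42 genes), and 6 had an unadjusted p under 0.05 (18.2%, against 20.2% of all genes).

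**Figure D3:**
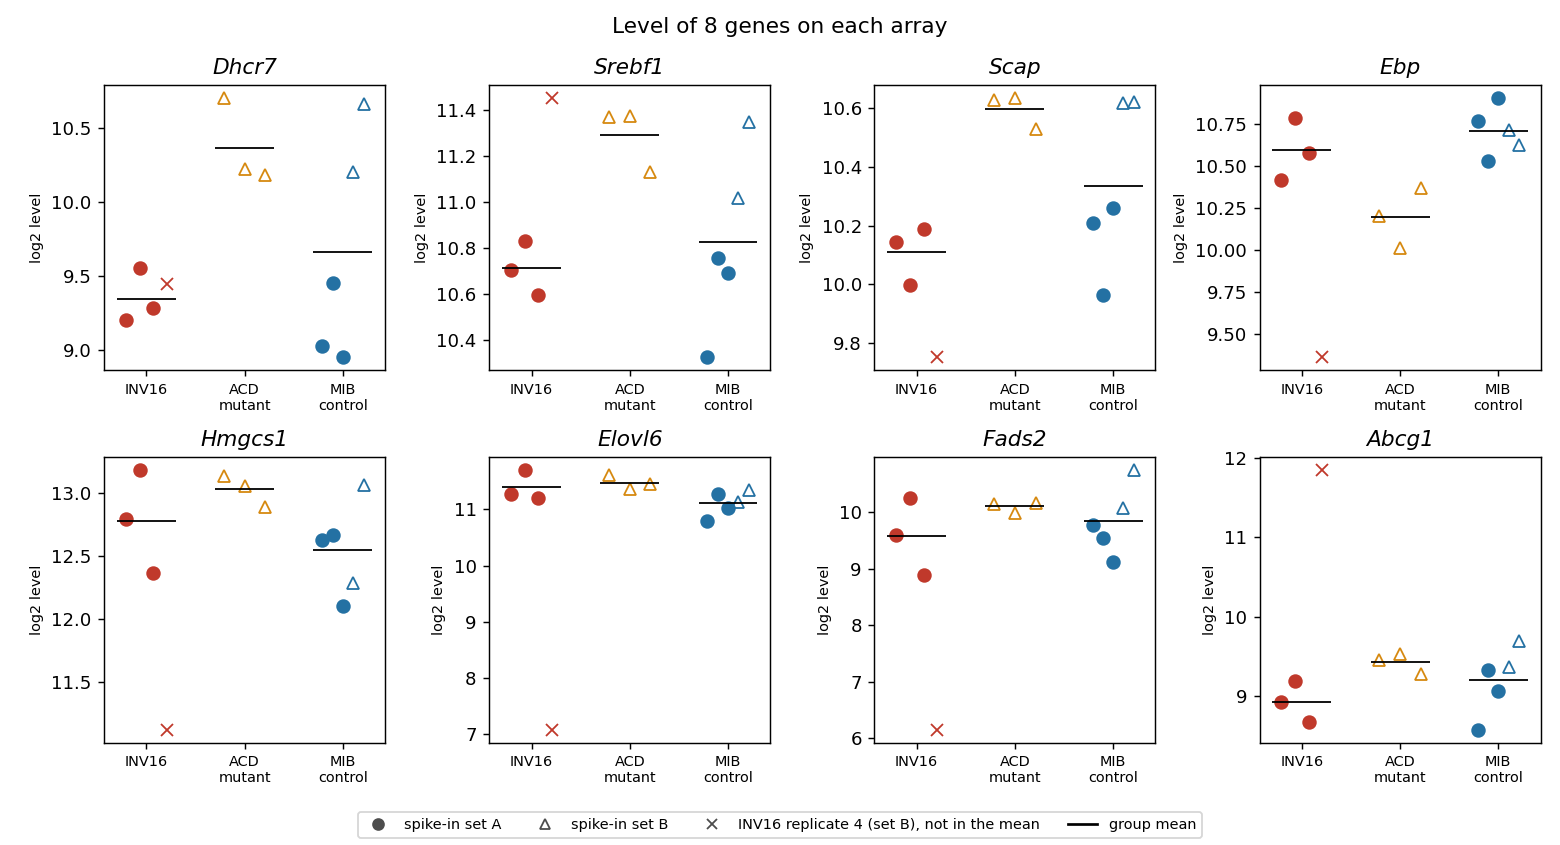
Log2 level of 8 genes on each array, with INV16 left, the ACD mutant in the middle and MIB control right, set A as filled circles, set B as open triangles, INV16 replicate 4 as a cross and group means as lines without that array. For Dhcr7, Srebf1 and Scap the triangles lie above the circles, also within MIB control. For Ebp the 3 ACD mutant arrays are the lowest of the 11, at up to 10.37. INV16 replicate 1 is next at 10.41, also below all 5 MIB control arrays.

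The third comparison sets the intact fusion against the ACD mutant, and here the groups coincide with the spike-in sets. Of the 33 genes, 27 had a lower mean in INV16 than in the ACD mutant, with a median difference of -0.21, against -0.02 over all genes. That median was -0.41 without INV16 replicate 2 and -0.0067 without INV16 replicate 3. None passed the adjusted test, where 2.07% of all genes did (267 genes, limma). At an unadjusted p under 0.05, 2 genes had positive and 5 negative differences in limma (21.2% of the 33, against 19.0% of all genes). Dhcr7, Srebf1, Scap, Abcg1, Acaca and Fads1 were lower on all 3 INV16 arrays than on all 3 ACD mutant arrays (18.2% of the 33, against 19.2% of all genes). Hsd17b7, Ebp and Stard4 were higher on all 3 (9.09%, against 9.44%).

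Dhcr7 had the largest difference of the 33, at 9.20, 9.55 and 9.28 on the INV16 arrays, against 10.70, 10.22 and 10.18 on the ACD mutant arrays, or -1.02 (SE 0.37, limma adjusted p = 0.153). The MIB control arrays had 9.03, 9.45 and 8.95 in set A and 10.20 and 10.66 in set B. The control arrays of each set thus fell beside the fusion of the same set. With the set as a block, which compares each fusion with the controls of its own set, the difference was 0.27.

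Srebf1, Srebf2 and Scap followed the same order. Srebf1, which encodes SREBP-1, had 10.70, 10.83 and 10.60 on the INV16 arrays, against 11.37, 11.37 and 11.13 on the ACD mutant arrays, a difference of -0.58 (SE 0.20, limma adjusted p = 0.144). In MIB control Srebf1 had 10.32, 10.76 and 10.69 in set A and 11.02 and 11.35 in set B. Srebf2, which encodes SREBP-2, had 7.94, 8.20 and 8.12, against 8.28, 8.38 and 8.19 in the ACD mutant, a difference of -0.20 (SE 0.16), or -0.12 without INV16 replicate 1. Its MIB control levels were 7.86, 8.01 and 7.996 in set A and 8.31 and 8.50 in set B. For both genes the set B controls were above all set A controls.

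Scap had 10.14, 10.00 and 10.19 on the INV16 arrays, against 10.63, 10.64 and 10.53 on the ACD mutant arrays, a difference of -0.49 (SE 0.16, limma adjusted p = 0.122). Its MIB control levels were 10.21, 9.97 and 10.26 in set A and 10.62 and 10.62 in set B. Insig1 had 8.62, 9.18 and 8.39 in INV16, against 8.97, 9.20 and 9.20 in the ACD mutant, a difference of -0.39 (SE 0.26), with 8.98, 8.55, 8.69, 9.01 and 9.70 in MIB control. Insig2 had 8.95, 8.96 and 9.06 in the ACD mutant, and differed by -0.17 (SE 0.16) between INV16 and the ACD mutant. Without INV16 replicate 2 the difference was -0.62 for Insig1 and -0.27 for Insig2, and without INV16 replicate 3 it was -0.22 for Insig1 and -0.0067 for Insig2. With the set as a block, the differences between INV16 and ACD mutant were 0.01 for Srebf1, 0.25 for Srebf2, -0.01 for Scap, 0.22 for Insig1 and -0.55 for Insig2.

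Acaca, the carboxylase that makes malonyl-CoA, had 9.56, 9.55 and 9.60 on the INV16 arrays, against 10.16, 10.03 and 9.86 on the ACD mutant arrays, a difference of -0.44 (SE 0.15, limma adjusted p = 0.122). Fads2, a desaturase of polyunsaturated fatty acids, had 9.60, 10.25 and 8.88, against 10.15, 9.99 and 10.17 in the ACD mutant, a difference of -0.52 (SE 0.36), and Fdft1 had 10.40, 10.85 and 9.92 in INV16, a difference of -0.51 (SE 0.31). Acaca did not overlap between the groups, and Fads2 and Fdft1 did. Without INV16 replicate 2 the difference was -0.86 for Fads2 and -0.74 for Fdft1, and without INV16 replicate 3 it was -0.18 for Fads2 and -0.28 for Fdft1. With the set as a block, Acaca differed by -0.06, Fads2 by 0.41 and Fdft1 by 0.25. The median over the 33 genes with that block was 0.22, with 27 genes above 0, the opposite sign to that without it.

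The same contrast of sets could be read within the empty vector, on arrays that the INV16 and ACD mutant comparison does not use. The MIB control arrays of set A minus those of set B had a median difference of -0.46 over the 33 genes and -0.02 over all genes. On all 3 controls of set A, 17 of the 33 genes were lower than on both controls of set B (51.5%, against 22.0% of all genes). Only Insig2 was higher (3.03%, against 17.0%). Across the 33 genes, which share arrays and are not independent, the INV16 minus ACD mutant difference and the set A minus set B difference in MIB control had a Pearson r of 0.72, against 0.45 over all genes. Their signs matched for 29 genes (87.9%, against 62.9% of all genes), 26 of them negative in both. Dhcr7, Srebf1, Scap, Acaca and Fads1 were lower on all 6 set A arrays than on all 5 set B arrays compared (15.2% of the 33, against 5.61% of all genes), and 0 of the 33 were higher there (1.41% of all genes). Fusion and set cannot be told apart in the direct comparison of INV16 with the ACD mutant.

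**Figure D4:**
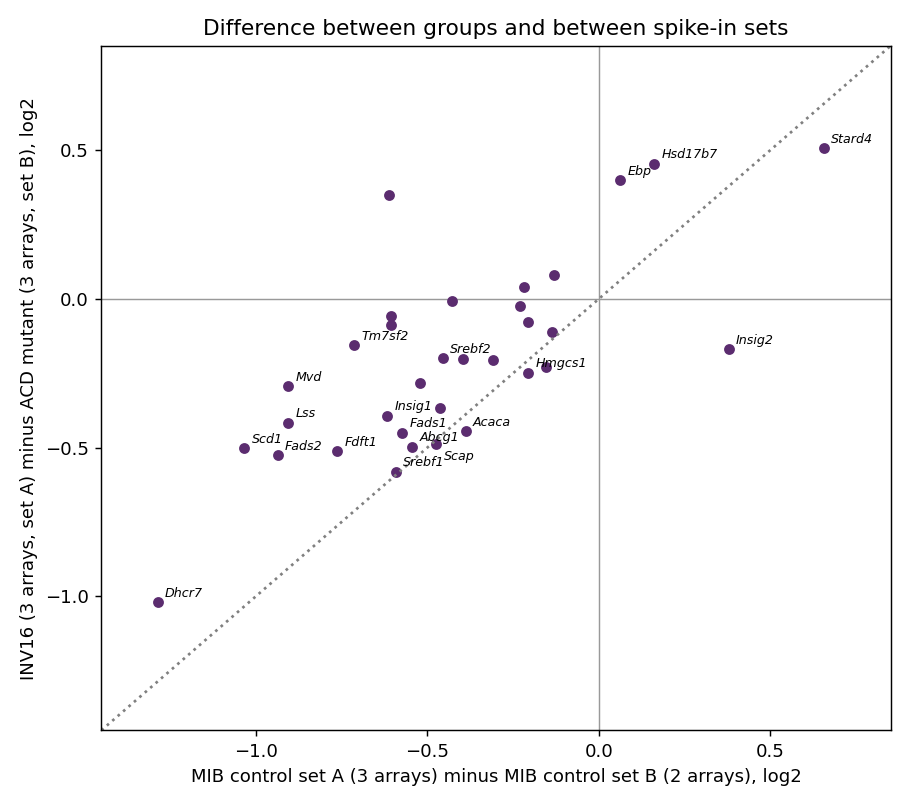
Difference between INV16 and ACD mutant (vertical axis, 3 arrays each) against the difference between the set A and set B arrays of MIB control (horizontal axis, 3 and 2 arrays), in log2 units, with 1 point a gene and the dotted line where both are equal. Most points lie in the lower left, with Dhcr7 lowest on both axes, and Stard4 is high on both.

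The genes varied together from array to array within each group. After each array's value was set against its own group mean, the median Pearson r over the 528 pairs of the 33 genes was 0.64 across 11 arrays, with 89.2% of pairs above 0. Over pairs of all genes it was 0.01, with 50.8% above 0. The median was 0.82 within the mevalonate pathway, 0.74 within the squalene and sterol steps, 0.66 within the fatty acid genes, 0.55 within SREBP control and -0.12 within transport and efflux. All pairs share the same 11 arrays, and the split of MIB control between sets enters them too.

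Sc5d, the desaturase near the end of the sterol route, followed the mean of the other genes most closely, at an r of 0.97. Mvd followed at 0.95 and Lss, which folds squalene epoxide into lanosterol, at 0.94. Ebp and Insig2 did not follow it, both at -0.05, nor did Stard4 at 0.14 or Scap at 0.23. The median deviation of the 33 genes from the MIB control mean was -0.12, 0.38 and -0.30 on the INV16 arrays, 0.27, 0.14 and 0.21 on the ACD mutant arrays, and -0.19, 0.01, -0.30, 0.07 and 0.50 on the MIB control arrays. The INV16 and MIB control experiments thus each covered a range wider than the distance between the group medians. Among the 12885 other genes, Ccl3, Pygb, Rfxap, Slc4a2 and Clcn6 had levels most like the mean of the 33 (Pearson r of 0.93, 0.93, 0.91, 0.90 and 0.90 over 11 arrays). The next was Acss2, which makes acetyl-CoA from acetate, at 0.89, named here after its value was seen.

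Promoter sequence was set beside this shared movement, since SREBP acts with the factor NF-Y, whose CCAAT box lies in many sterol gene promoters. RefSeq windows (GRCm38.p6) running from 250 bases before to 50 after a gene's start were found for 26 of the listed genes, in 34 windows. CCAAT or its complement was present in 21 of the 34 windows (61.8%), against 37.4% of all 32851 windows. The sterol regulatory element was searched as TCACNCCAC on both strands, and was found in 1 of the 34 windows, that of Hmgcs1, against 1.24% of all. The GC box GGGCGG, on either strand, was in 26 of the 34 (76.5%), against 35.7%. The windows of Hmgcs1 (chr13:119690101-119690400, plus strand), Lss (chr10:76531355-76531654, plus strand), Sc5d (chr9:42264251-42264550, minus strand) and Ebp (chrX:8193463-8193762, minus strand) are shown, the first for its element, Lss and Sc5d as genes that followed the mean and the last for one that did not. Capitals mark CCAAT or its complement and, in Hmgcs1, the sterol regulatory element, and no marked runs overlap.
Hmgcs1: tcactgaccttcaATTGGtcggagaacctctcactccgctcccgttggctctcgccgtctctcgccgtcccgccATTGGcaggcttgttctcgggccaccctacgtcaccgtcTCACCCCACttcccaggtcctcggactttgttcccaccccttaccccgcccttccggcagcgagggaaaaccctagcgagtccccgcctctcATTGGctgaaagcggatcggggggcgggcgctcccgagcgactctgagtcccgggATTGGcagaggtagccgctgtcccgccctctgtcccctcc
Lss: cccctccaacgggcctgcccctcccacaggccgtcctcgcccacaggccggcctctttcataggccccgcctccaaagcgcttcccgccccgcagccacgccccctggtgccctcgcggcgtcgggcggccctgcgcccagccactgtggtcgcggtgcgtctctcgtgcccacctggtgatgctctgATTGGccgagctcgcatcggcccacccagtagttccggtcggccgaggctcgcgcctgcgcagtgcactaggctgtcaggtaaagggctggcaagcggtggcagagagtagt
Sc5d: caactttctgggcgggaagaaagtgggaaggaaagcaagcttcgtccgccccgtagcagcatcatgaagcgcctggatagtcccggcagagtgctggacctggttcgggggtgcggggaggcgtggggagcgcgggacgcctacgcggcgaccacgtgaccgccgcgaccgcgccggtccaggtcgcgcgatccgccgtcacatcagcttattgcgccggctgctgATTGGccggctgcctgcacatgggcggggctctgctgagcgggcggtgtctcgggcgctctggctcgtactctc
Ebp: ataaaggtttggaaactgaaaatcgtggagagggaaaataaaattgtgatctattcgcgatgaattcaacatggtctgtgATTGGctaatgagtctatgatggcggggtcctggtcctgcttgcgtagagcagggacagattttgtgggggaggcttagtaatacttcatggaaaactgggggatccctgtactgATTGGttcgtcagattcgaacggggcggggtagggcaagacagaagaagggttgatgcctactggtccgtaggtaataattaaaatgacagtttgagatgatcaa

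The letters were present 4 times in Hmgcs1, once in Lss and Sc5d and 2 times in Ebp, so that the window of the gene that stood apart held them as well. Over genes, 20 of the 26 (76.9%) had CCAAT in at least 1 window, against 41.1% of all 27025. A match is a description of these letters and not of binding, and base composition was not matched.

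INV16 replicate 4 was unlike every other array in these genes, and with 1 array there is no test. Its level was below that of all 11 other arrays for 22 of the 33 genes (66.7%, against 38.8% of all genes) and above all of them for 4 (12.1%, against 34.3%). Against the mean of INV16 replicates 1 to 3, 16 genes were lower by at least 1 log2 unit (48.5%, against 20.8% of all genes) and 3 higher by as much (9.09%, against 8.69%). The median difference was -0.90 over the 33 genes and -0.00 over all genes. By role it was -1.46 for the mevalonate pathway, -1.03 for the squalene and sterol steps, -1.11 for the fatty acid genes, -0.36 for SREBP control and 2.34 for transport and efflux. That last role held 3 genes that did not move alike, with 2.92 for Abcg1, 2.34 for Abca1 and -1.73 for Stard4.

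The genes named for this array were chosen after their values were seen. Elovl6 had 7.07 on INV16 replicate 4, against 10.80 to 11.70 on the other 11 arrays, and Fads2 had 6.15, against 8.88 to 10.75. Msmo1, a sterol methyl oxidase, had 7.91, against 9.68 to 11.28, and Fdps, which makes farnesyl pyrophosphate, had 6.98, against 8.77 to 10.00. Idi1, the isomerase of isopentenyl pyrophosphate, had 9.14, against 11.23 to 12.19. These enzymes thus read far under the whole range of the other arrays.

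The efflux transporters went the other way. Abcg1 had 11.85 on INV16 replicate 4, against 8.58 to 9.69 on the other 11 arrays, and Abca1 had 9.43, against 6.13 to 7.61. The fatty acid enzyme gene Scd1 was also higher than the mean of the other INV16 arrays, by 1.12. Its level of 9.69 lay within the 7.07 to 9.87 of the other 11 arrays. Srebf1 at 11.45 and Fdft1 at 11.25 were just above their highest other arrays, at 11.37 and 11.21. The 7 genes of the list of LXR and its targets had a median of 1.75 above INV16 replicates 1 to 3, with 4 at least 1 log2 unit higher and 1 lower. On this array the mean of 8 mast cell and basophil markers was 11.26, against 7.18 to 7.30 on the other INV16 arrays, 7.59 to 7.77 on the ACD mutant arrays and 6.86 to 7.75 on the MIB control arrays, and 7 of the 8 were above all other arrays. The eighth, the basophil protease gene Mcpt8, was at 5.35, against 9.39 to 10.24 on the other 11. The mean of 4 erythroid markers was 7.89, against 5.58 to 5.85, 5.8 to 6.01 and 5.38 to 6.06 in the same groups. All 4 were above all other arrays, but Hba-a1 and Car1 did not pass the filter on low values. Hba-a1 was at 4.568, against at most 4.564 on the others. All 4 T and NK cell markers and 2 of 3 B cell markers were also above all other arrays, as were 34.3% of all genes. The mean of 11 progenitor markers was 8.19, against 10.16 to 10.79, 10.44 to 10.65 and 10.34 to 10.63 in the same groups. Of the 11, 7 were below all other arrays and 2 were above all of them. These 2 were Gata2 at 11.74, against 9.67 to 11.26, and Tal1 at 11.44, against 9.89 to 10.92. The part of these cell type markers in the values of the lipid genes was not tested.

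Other genes of these routes were read from 6 wider lists. In INV16 against MIB control 1 of their 62 genes passed the limma test (1.61%, against 1.70% of all genes), a share near the background, and 9 did at an unadjusted p under 0.05 (14.5%, against 15.8%). In ACD mutant against MIB control 0 passed in limma (1.70% of all genes), with 17 at that unadjusted level (27.4%, against 19.5%). In INV16 against ACD mutant 0 passed in limma (2.07% of all genes), with 9 at the unadjusted level (14.5%, against 19.0%). The lists held 6 genes of other sterol and isoprenoid steps, 8 of SREBP processing, 7 of lipoprotein uptake and sterol traffic, 7 of LXR and its targets, 18 of other fatty acid synthesis and 16 of fatty acid oxidation and storage. Mylip, an LXR target whose product marks lipoprotein receptors for breakdown, rose in INV16. It had 9.98, 9.87 and 9.75 on the INV16 arrays, against 9.35, 9.22, 9.38, 9.12 and 9.17 on the MIB control arrays, a difference of 0.62 (SE 0.11, limma adjusted p = 0.0165). All INV16 arrays lay above all controls, and 9.68, 9.67 and 9.31 in the ACD mutant lay between or among them. The call held in 9 of 11 fits that left out 1 array, and was lost without INV16 replicate 1 (adjusted p = 0.122) or replicate 2 (0.0677) in limma. It was also lost within set A (0.55, adjusted p = 0.109) and with INV16 replicate 4 included (1.12, adjusted p = 0.269), both in limma. Abca1 and Abcg1, targets of the same receptor, differed by 0.11 (SE 0.25) and -0.28 (SE 0.20) in that comparison.

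Several genes had more than 1 probe set, and these did not always read alike. Beside the ones used, 34 probe sets of 21 genes passed the filter. Their difference had the same sign as that of the probe set used in 27 of 34 between INV16 and MIB control, 21 of 34 between ACD mutant and MIB control and 21 of 34 between INV16 and ACD mutant. For INV16 replicate 4 against the other INV16 arrays it was 29 of 34. The other 2 probe sets of Fdft1 differed by -0.14 and -0.06 between ACD mutant and MIB control, against 0.61 for the one used. Between INV16 and ACD mutant they differed by 0.19 and 0.02, against -0.51. For INV16 replicate 4 against the mean of the other INV16 arrays they differed by 0.29 and -0.69, against 0.86. Those of Stard4 differed by 0.25 and -0.13 between INV16 and MIB control, against 0.43. Between INV16 and ACD mutant those of Stard4 differed by -0.0002 and -0.10, against 0.51. For Insig2 they differed by -0.15 and 0.21 between INV16 and MIB control, against -0.30. Between ACD mutant and MIB control they differed by 0.23 and 0.48, against -0.13. For Elovl6 they differed by 0.18 and -0.14 between ACD mutant and MIB control, against 0.36. The mean of its probe sets differed by 0.13 there (adjusted p = 0.571 in limma). For Hsd17b7 they differed by 0.87 and 0.27 between INV16 and MIB control, against 0.32. They differed by 0.69 and 0.25 between ACD mutant and MIB control, against -0.13, and by 0.17 and 0.02 between INV16 and ACD mutant, against 0.45. The other probe set of Fads1 differed by 0.25 between INV16 and ACD mutant, against -0.45.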

How the data were processed

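RNA of sorted, transduced mouse progenitors was amplified in 2 cycles, labelled with biotin and hybridised to Affymetrix arrays, per the labels' protocols. The deposited table holds log2 values of 45101 probe sets on 12 arrays, made by the authors, and how they corrected background, normalized and summarised is not stated in the labels. Base 2 was inferred from the range (2.82 to 14.97, array medians 5.62 to 5.79). No background measure comes with the values, and dim genes show compressed differences.

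Gene symbols came from GEO's platform annotation (34945 with 1 symbol, 932 with several, 9211 with none). The 64 control probe sets stayed out of the tests. A gene was tested where its probe set with the highest mean exceeded the 40th percentile of all means. A mean per group was fitted with limma 3.58.1 in R 4.3.3 over 11 arrays (8 residual and 5.04 prior degrees of freedom), with Benjamini-Hochberg adjustment over 12918 genes and two-sided tests. The script was tested on simulated data.

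The genes, roles and lists were chosen with earlier results of these data known. Values on every array were given for genes with the largest differences (up to 4 a comparison), for the 5 SREBP regulators, and for others where a result turned on them, chosen after their values were seen. Same-numbered arrays were checked for pairing by the correlation of their deviations from group means. It was -0.16, -0.18 and -0.31 between INV16 and ACD mutant, and -0.00 and -0.10 between INV16 and MIB control, so the numbers were not taken to pair samples. Alternatives were all 12 arrays, quantile normalization, no filter, the mean of a gene's probe sets, only the groups compared, the spike-in set as a block or within it, the replicate number as a block, and each array left out. The replicate block between INV16 and MIB control was fitted on all 12 arrays, so that it included INV16 replicate 4. Between INV16 and ACD mutant it was fitted without INV16 replicate 4 and without MIB control. The number of arrays limits the precision. The number of unused sample columns was 0.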

Additional observations from a re-analysis of the deposited data

Results flagged for a closer look

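Over 66 groups checked (33 genes in INV16 and MIB control), 3 genes had 1 array far from the others of its group, and chance gives about 1 in 20. All 3 were INV16 replicate 4. Its Abcg1 level was 11.85, against 8.68 to 9.19 on the other 3 INV16 arrays. Its Acaca level was 8.40, against 9.55 to 9.60. Its Elovl6 level was 7.07, against 11.21 to 11.70.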

How the results depend on the processing

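None of the 33 genes passed limma between INV16 and MIB control under any setting run. Between ACD mutant and MIB control, 1 gene, Ebp, passed with quantile normalization, and 0 to 3 passed when 1 array was left out. With the mean of probe sets 1 passed, again Ebp, whose own values did not change there. Between INV16 and ACD mutant, 4 passed with only the groups compared (Dhcr7, Srebf1, Scap and Acaca). With the replicate block 1 passed, Dhcr7 (adjusted p = 0.0264 in limma), and 0 passed when any 1 array was left out. The counts of all genes called, given below, also rose with only the groups compared and with the replicate block. These groups coincide with the spike-in sets. All 4 genes were also lower on every MIB control array of set A than on every one of set B. The same held for 51.5% of the 33 and 22.0% of all genes.

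Counts of all genes called by limma moved more. Between INV16 and MIB control, 219 became 20 with all 12 arrays, 93 with only the groups compared and 30 within the spike-in set. It became 0 with the replicate block, also on all 12 arrays (2309 at an unadjusted p under 0.05). The count was 29 (without INV16 replicate 1) to 332 (without MIB control replicate 4) when 1 array was left out. Between ACD mutant and MIB control, 220 became 0 with all 12 arrays (892 at an unadjusted p under 0.05), 72 with only the groups compared, 20 with the set as a block, 42 within the set, and 3 (without ACD mutant replicate 1) to 591 (without MIB control replicate 7) when 1 array was left out. Between INV16 and ACD mutant, 267 became 5 with all 12 arrays, 173 with the mean of probe sets, 840 with only the groups compared, 0 with the set as a block (1492 at an unadjusted p under 0.05), 380 with the replicate block, and 36 (without ACD mutant replicate 2) to 505 (without MIB control replicate 7) when 1 array was left out. The percentages of all genes called move with these counts.

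Of 213 values of single genes under other settings, 26 turned direction, 7 newly passed the threshold, 3 no longer passed it and 177 did neither. Of 319 with 1 array left out, the counts were 3, 4, 2 and 310, and the losses were those of Mylip given above. With the replicate block, which put INV16 replicate 4 back in, Mylip had 1.39 between INV16 and MIB control (adjusted p = 0.278 in limma). Between INV16 and MIB control, Srebf1 turned to 0.068 with all 12 arrays, 0.12 within the set or with it as a block, 0.45 with the replicate block, and ran from -0.24 to 0.013 with 1 array left out. Srebf2 turned to 0.13 within the set or with the block, 0.23 with the replicate block, and ran from -0.12 to 0.040 with 1 array left out, where leaving out INV16 replicate 1 gave 0.02. With the replicate block, again with INV16 replicate 4 included, Stard4 turned to -0.997 and Hsd17b7 to -0.30. Between ACD mutant and MIB control, Insig2 turned to 0.19 with the mean of probe sets and 0.10 within the set or with the block. There Dhcr7 turned to -0.064, Srebf2 to -0.12, Scap to -0.022 and Insig1 to -0.23. Between INV16 and ACD mutant, the block turned Dhcr7 to 0.27, Srebf1 to 0.011, Fads2 to 0.41, Fdft1 to 0.25, Srebf2 to 0.25 and Insig1 to 0.22. The set block rests on 5 MIB control arrays, and the cause of each turn was not tested. The ACD mutant and MIB control share only replicate number 3, so no replicate block was fitted there, and the other groups share numbers without evidence of pairing.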
